A study of Mus musculus with 25 samples.

Results

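Peritoneal macrophages that lack both SAMHD1 and MDA5 were compared with wild-type (WT) macrophages across all genes, to ask whether the double knockout returned to the WT state. The comparison took the 4 libraries of the genotype SAMHD1 MDA5 DKO, called the double knockout here, and the 5 WT libraries, chosen by the start of their column names, which makes 9 of the 25 libraries of the series. All mice were untreated, at Day 0 in the labels. SAMHD1 KO and MDA5 KO, with 4 libraries each, are given beside the double knockout. RIG-I KO enters only the shared estimate of the spread. SAMHD1 RIG-I DKO enters that estimate and is set directly against the double knockout for some genes and for transcript length. Titles of the SAMHD1 KO samples use the names DEL and KO, which could not be tied to single columns. The sources used here do not give the alleles, the strain, the age or the sex of the mice. Nor do the labels say that each library came from its own animal, so p-values measure the spread between libraries, which may be technical.

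SAMHD1 is an enzyme that breaks down deoxynucleoside triphosphates (dNTPs) and also limits the nucleic acids that cells release into their cytosol. Loss of SAMHD1 is known to raise interferon-stimulated genes, the genes that type I interferon switches on through its receptor. MDA5, encoded by Ifih1, is a cytosolic receptor for long double-stranded RNA that signals through MAVS to type I interferon, and it is itself an interferon-stimulated gene. Large peritoneal macrophages are resident cells that carry GATA6 and keep a low level of interferon signalling in the resting state.

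Promoters of 4 interferon-stimulated genes are shown because the members of this list are the ones on which the question turns. Each is the 250 bases before the gene's start, 5′ to 3′ on the gene's strand, from RefSeq on GRCm38.p6. Capitals mark GAAA followed after any 2 bases by a second GAAA, or the reverse complement (TTTC, any 2 bases, TTTC), the repeat found in elements that interferon regulatory factors bind; overlapping matches were each counted. Isg15 lies at chr4:156200819-156201068, minus strand with 3 overlapping matches, Ifi205 at chr1:174031756-174032005, minus strand with 1, Ifit1 at chr19:34640639-34640888, plus strand with 2, and Rsad2 at chr12:26456453-26456702, minus strand with 1.
Isg15: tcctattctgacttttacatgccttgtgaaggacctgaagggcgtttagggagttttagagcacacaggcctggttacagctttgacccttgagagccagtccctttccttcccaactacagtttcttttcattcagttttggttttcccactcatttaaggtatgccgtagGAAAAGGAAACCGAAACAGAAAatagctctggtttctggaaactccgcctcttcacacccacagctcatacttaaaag
Ifi205: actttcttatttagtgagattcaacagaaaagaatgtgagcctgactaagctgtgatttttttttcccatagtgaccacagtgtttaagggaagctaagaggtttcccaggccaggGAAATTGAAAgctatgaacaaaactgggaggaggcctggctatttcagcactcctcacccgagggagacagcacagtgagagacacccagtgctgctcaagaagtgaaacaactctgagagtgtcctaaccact
Ifit1: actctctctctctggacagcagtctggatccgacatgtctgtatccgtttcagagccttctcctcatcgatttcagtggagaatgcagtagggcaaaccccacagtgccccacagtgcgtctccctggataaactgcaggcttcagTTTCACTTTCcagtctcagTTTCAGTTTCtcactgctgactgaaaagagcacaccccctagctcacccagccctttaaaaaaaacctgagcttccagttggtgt
Rsad2: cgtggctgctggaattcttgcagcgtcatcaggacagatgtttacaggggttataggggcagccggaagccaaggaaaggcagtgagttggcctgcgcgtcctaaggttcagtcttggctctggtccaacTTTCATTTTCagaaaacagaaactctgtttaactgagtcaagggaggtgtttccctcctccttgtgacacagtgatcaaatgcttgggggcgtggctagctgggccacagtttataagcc
In windows of 300 bases, from 250 before to 50 after the start, the motif was present in 33 of the 70 interferon-stimulated genes with an entry (47.1%) and in 1079 of 27025 genes with an entry (3.99%). Among genes called different between the double knockout and WT, the 2 deleted genes left out, 2 of 26 with an entry held it (7.69%).

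The listed genes held 25886469 to 39590589 reads per library, and levels below are normalized counts unless another scale is named. All 17 markers of large peritoneal macrophages were in the table, and Gata6 read 5516, 3796, 5031 and 3716 in the double knockout and 4702, 5496, 5668, 5011 and 4919 in WT, with overlapping groups. WT library 3 and SAMHD1 KO library 2 were far from all others on the first principal component, which held 20.3% of the variance: they scored -50.9 and -63.9, and the others between -20.7 and 25.8. Their library codes also stood outside the consecutive run of their genotype, with gaps of 20 and 10, and no batch is given in the labels. By these codes they were set as the libraries apart that are left out in some fits below. Libraries are numbered in column order, which carries no pairing.

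Both targeted genes were low in the double knockout, with 1 exception among the libraries. Ifih1 (chr2:62595798-62646255, minus strand) read 6.24, 1.15, 11.1 and 10.8 in the double knockout and 1869, 1759.9, 1729, 1632 and 2031 in WT. The groups were far apart, and the log2 fold change was -8.04 ± 0.47 (standard error; limma, Benjamini-Hochberg adjusted p = 4.32e-10). Samhd1 (chr2:157097533-157135265, minus strand) read 1397, 1069, 4952 and 1359 in the double knockout, against 10571, 10269, 12817, 9376 and 6486 in WT. Double knockout library 3 kept 4952 of Samhd1, where the WT mean was 9904, although its Ifih1 was as low as in the others, and SAMHD1 KO library 2 kept 48.1% of the WT mean. Samhd1 fell by 2.44 on the log2 scale (SE 0.36, adjusted p = 0.00136), and by 2.93 in the fit without library 3 (adjusted p = 1.85e-05). Ddx58, which encodes the related sensor RIG-I and was not targeted here, read 1574, 1231, 1442 and 1336 in the double knockout and 1769.7, 1364, 1664, 1286 and 1598 in WT, a log2 difference of -0.13 ± 0.11 (adjusted p = 0.528).

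Across the transcriptome, 44 of 13252 tested genes differed from WT at an adjusted p under 0.05 (0.332%), 9 higher (0.0679%) and 35 lower (0.264%), and 23 of them by at least 2-fold. After Ifih1, the called genes with the smallest p were Rnd3, Kif5c and Vis1, which lie on chromosome 2 at 11.4, 12.8 and 17.3 Mb from Ifih1. No called gene was on the list of interferon-stimulated genes used below, which leaves out both targeted genes. An unadjusted p under 0.05 was reached by 2602 genes (19.6%), 1550 higher (11.7%) and 1052 lower (7.94%), where 663 would be the 5% level. The median log2 fold change over all genes was -0.012. Because a p that misses the threshold does not show equality, the 95% intervals were counted too: they lay within a 2-fold difference either way for 10924 genes (82.4%) and within a 1.5-fold difference for 8036 (60.6%).

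The number of called genes depended on single libraries. It was 20 without double knockout library 1, 13 without library 2 and 22 without library 4, and 136 without library 3, the library that kept Samhd1, with 43 of the 44 calls retained. It was 25 without WT library 1, 22 without WT library 3 and 118 without WT library 4. Called in all 9 of these fits with 1 library left out were 11 genes: Ifih1, Samhd1, Rnd3, Kif5c, Vis1, Gca, Cytip, 5031425F14Rik, Dynlt1b, Fxyd6 and Irag1. Every other called gene lost its call without at least 1 library.

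**Figure D1:**
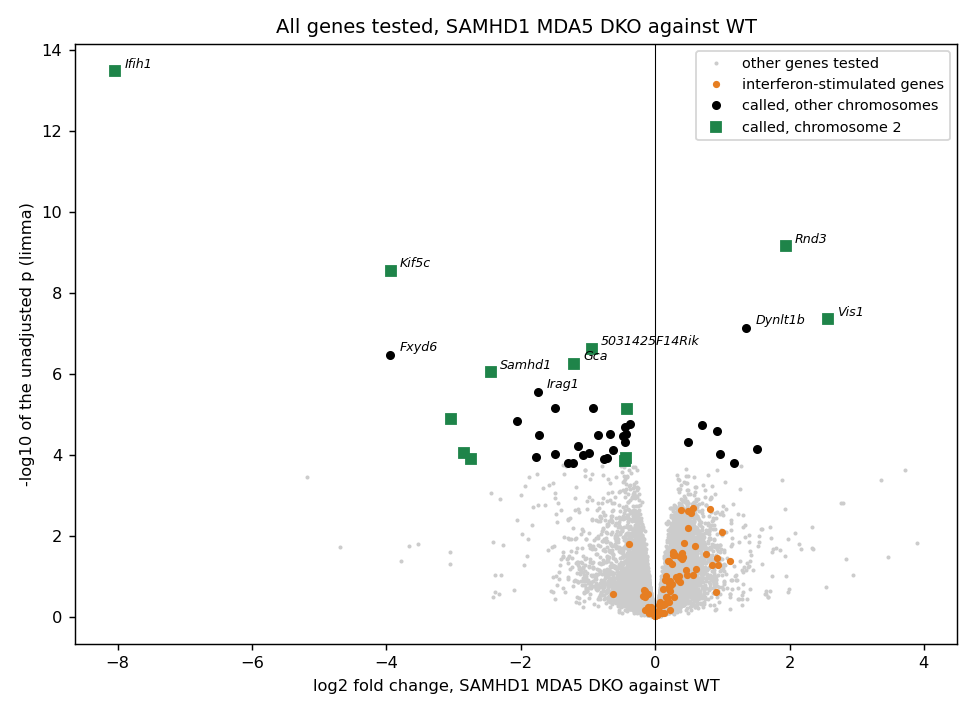
Each point is 1 of 13252 tested genes, with the log2 fold change of the SAMHD1 MDA5 DKO against WT on the x axis and -log10 of limma's unadjusted p on the y axis. Ifih1, Kif5c, Rnd3 and Vis1, all on chromosome 2, are the 4 highest points, and the 85 interferon-stimulated genes (orange) lie below every called gene.

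Interferon-stimulated genes, a list that leaves out Ifih1 and Samhd1, were on the whole slightly above WT in the double knockout, and none was called. Of 87 listed genes 85 were tested; 63 had a log2 fold change above 0, where 47.8% of all tested genes did, and their median was 0.18 against -0.012 over all genes. At an unadjusted p under 0.05, 21 were higher and 1 lower (11.7% and 7.94% of all genes), and voom called 0. In 5 of the 85, Isg15, Slfn2, Ifi209, Slfn1 and Ifi211, every double knockout library was above every WT library (2.58% of all genes, and 2.26% lay below WT in this way). The 95% interval lay within a 2-fold difference for 70 of the 85 and within a 1.5-fold difference for 43. The mean log2 level of the list was 10.10, 9.65, 9.62 and 9.67 in the 4 double knockout libraries and 9.71, 9.17, 9.69, 9.37 and 9.77 in the 5 WT libraries, so that library 1 alone of the double knockout was above all WT libraries. Without library 1 the median was 0.062, with 53 members above 0, and without WT library 3 it was 0.21 with 73 above 0.

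The single knockouts share the WT libraries with the double knockout, so their values are set side by side and not correlated. In SAMHD1 KO against WT the list had a median of 0.45 with 82 members above 0, and 1 was called (Irf7), among 2 genes called in that comparison (0.0151%). Without WT library 3 and SAMHD1 KO library 2 the call of Irf7 was lost and no member was called. Without WT library 3 alone 4 were, among 9 called genes: Ifi213, Irf7, Oasl1 and Sp100. In MDA5 KO against WT the median was -0.18 with 8 members above 0 and none called, among 9 called genes (0.0679%), 5 of them lower (0.0377%). The direct comparison of the double knockout with SAMHD1 KO tests their difference: 71 of 85 members were lower in the double knockout, with a median of -0.28, and none passed, against 16 of all genes (0.121%). Without WT library 3 and SAMHD1 KO library 2, 4 members passed in this direct comparison, all lower: Ifi208, Irf7, Parp14 and Sp100. In that fit 534 of all 13252 tested genes passed, 88 of them lower. Without WT library 3 alone 15 members passed, all lower, those 4 among them, where 1465 of all genes did, 382 of them lower. Without double knockout library 3 and SAMHD1 KO library 2 none of the members passed, where 6 of all genes did. Against MDA5 KO, 81 members were higher in the double knockout with a median of 0.33 and none passed; Samhd1 was the 1 gene called there (0.00755%). Without WT library 3 and SAMHD1 KO library 2, Oasl1 passed as higher than in MDA5 KO, among 6 called genes.

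**Figure D2:**
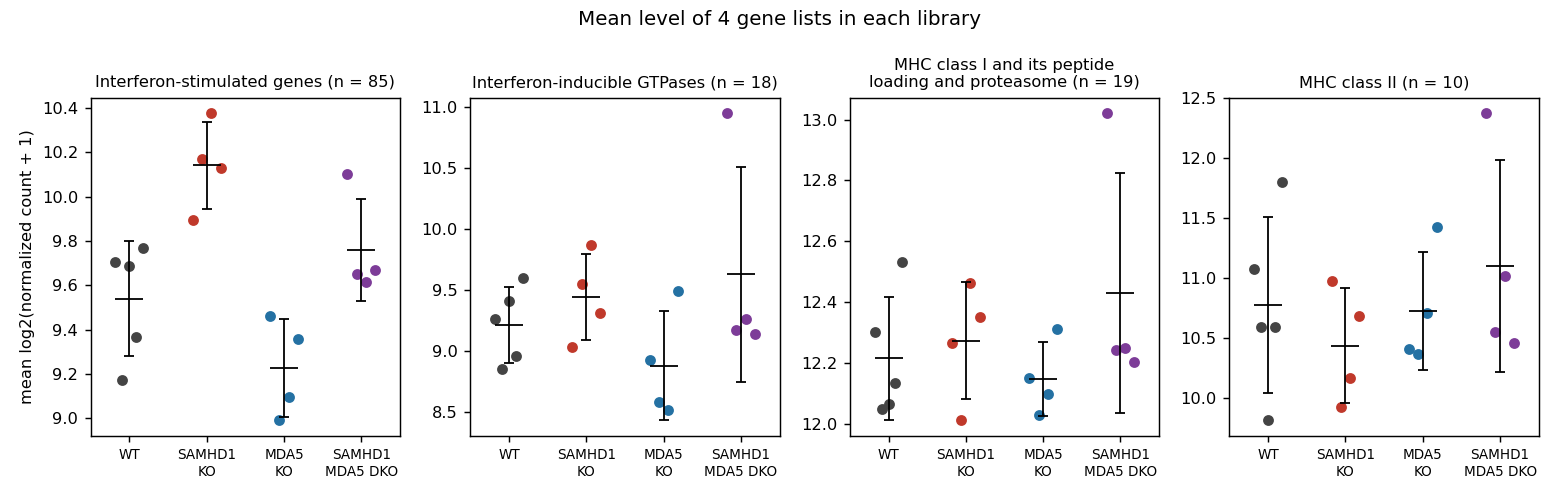
Each point is 1 library, and its height is the mean log2(normalized count + 1) over the tested members of a list; black lines give the mean and SD of each genotype. In the first panel 3 double knockout libraries lie within the WT range and library 1 lies above it at 10.10, and in the panels of GTPases and both MHC classes library 1 is again above every other library shown.

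Transcription factors and signalling genes of the response held no gene called against WT. Of the 9 members in this role 8 had a log2 fold change above 0, with a median of 0.27 that was 0.10 without double knockout library 1, and 4 had an interval within a 1.5-fold difference. Irf7, a transcription factor that drives further production of type I interferon, read 3183, 1877, 1966 and 2052 in the double knockout, 1879, 1149.9, 2042, 1494 and 2333 in WT, 3211, 3619, 6114 and 4664 in SAMHD1 KO and 1603, 910.4, 1014 and 1422 in MDA5 KO. The double knockout overlapped WT, and all SAMHD1 KO libraries were above all WT libraries. Its log2 fold change was 0.36 ± 0.21 in the double knockout (adjusted p = 0.342) and 1.30 ± 0.21 in SAMHD1 KO (adjusted p = 0.0149), and the direct difference of -0.94 ± 0.22 (95% interval -1.40 to -0.49) had an adjusted p of 0.0697. Socs1, a feedback inhibitor of JAK kinases, differed by 0.47 ± 0.27 (adjusted p = 0.340).

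The ISG15 system, a ubiquitin-like modifier with its enzymes, had the highest median of the roles, 0.39, with 4 of 5 members above 0; it was 0.23 without double knockout library 1. Isg15, the modifier itself, read 345, 234, 193 and 206 in the double knockout and 178, 89.1, 102, 151 and 183 in WT. All 4 double knockout libraries were above all 5 WT libraries. Its log2 fold change of 0.81 ± 0.24 had an unadjusted p of 0.00216 and an adjusted p of 0.120. In SAMHD1 KO it read 218, 160.3, 297 and 314, a log2 difference from WT of 0.82 ± 0.24, and the double knockout and SAMHD1 KO differed by -0.0044 with a 95% interval of -0.52 to 0.51. Corrected for transcript length, a choice made after the data were seen, the fold change of Isg15 against WT was 0.47 (adjusted p = 0.279). Usp18, the protease that removes ISG15 and damps the interferon receptor, read 791, 549, 402 and 419.6 and in WT 373, 294, 344, 301 and 427. Libraries 3 and 4 lay inside the WT range, and the difference was 0.59 ± 0.23 (adjusted p = 0.173).

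The antiviral effectors that respond most to interferon held no called gene either. Of 21 tested effectors 16 were above 0, with a median of 0.20 (0.099 without double knockout library 1), where the median of SAMHD1 KO against WT was 0.67. Rsad2, which encodes the antiviral enzyme viperin, read 331, 177, 159 and 203 in the double knockout and 224, 102, 191, 116 and 289.6 in WT, with overlapping groups (0.28 ± 0.28, adjusted p = 0.609). In SAMHD1 KO Rsad2 read 304, 369, 692 and 378, and the direct difference of the double knockout from SAMHD1 KO was -0.98 ± 0.29 (adjusted p = 0.0871). Mx1, a dynamin-like GTPase against influenza viruses, read 158, 152, 140.0 and 248 in the double knockout and 202, 85.1, 478, 162 and 148 in WT. WT library 3 was the highest of these 9 at 478, and the log2 difference was -0.095 ± 0.39 with an interval of -0.91 to 0.72. Ifit1, which binds viral RNA caps, differed from WT by 0.61 ± 0.32, Ifit3, its partner, by 0.56 ± 0.32, and Ifi44, a GTP-binding protein, by 1.11 ± 0.52; their adjusted p-values were 0.291, 0.334 and 0.237. Each of these 3 had its highest value in library 1 of the double knockout, and Ifi44 there read 123 against 25.3 to 38.2 in the other 3 and 12.8 to 31.6 in WT.

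Oligoadenylate synthetases make the messenger that switches on RNase L. Of the 9 genes in this role 6 were above 0, with a median of 0.15 in the double knockout and 0.89 in SAMHD1 KO, and all 9 were lower in the double knockout than in SAMHD1 KO, with a median of -0.69 and none called. The median against WT was 0.020 without double knockout library 1 and 0.29 without WT library 3. Oasl1, which lacks the enzyme activity, read 115, 121, 109 and 103 in the double knockout and 103, 25.04, 80.6, 59.5 and 99.9 in WT. The 4 double knockout libraries lay close together, and WT library 1, the highest of WT, touched their range. Its difference from WT was 0.75 ± 0.32 (adjusted p = 0.207) and its difference from MDA5 KO, where it read 49.3, 30.6, 23.8 and 20.9, was 1.89 ± 0.34 (adjusted p = 0.0526). Oas2 read 931, 1091, 988 and 1833 in the double knockout and 1233, 763, 3666, 768 and 1097 in WT, with WT library 3 far above the rest (-0.088 ± 0.42, adjusted p = 0.934).

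The Ifi200 family, which includes sensors of nuclear and cytosolic DNA, had 8 of 11 members above 0 and a median of 0.26, which was 0.15 without double knockout library 1. Ifi205 read 1327, 592, 422 and 327 in the double knockout and 367, 250.4, 255, 146 and 574 in WT. The groups overlapped, with library 1 well above the others, and the difference was 0.99 ± 0.34 (adjusted p = 0.144). Ifi209 read 2832, 2426, 1923 and 2195 against 1914, 1453, 1443, 1358 and 1916, without overlap (0.54 ± 0.16, adjusted p = 0.123), though the nearest values, 1923 and 1916, nearly touched. Ifi206 was at 0.84 ± 0.42 in the double knockout and 2.18 ± 0.42 in SAMHD1 KO, with adjusted p-values of 0.264 and 0.0706. These genes lie in 1 cluster of related copies, so reads may be shared between members and the value of a single member is uncertain.

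Schlafen genes, regulators of growth and of translation in immune cells, had 5 of 7 members above 0 and a median of 0.11, which was 0.24 with 7 above 0 without WT library 3 and 0.057 without double knockout library 1. Slfn2, which holds immune cells in quiescence in mice, read 9847, 9121, 7290.1 and 8029 in the double knockout and 6594, 5837, 3998, 6365 and 6606 in WT. The groups did not overlap (0.56 ± 0.16, adjusted p = 0.119), while its difference in SAMHD1 KO was 0.24 ± 0.16. Without double knockout library 3 and SAMHD1 KO library 2, the libraries that kept Samhd1, 454 of all 13252 tested genes passed against WT, 226 of them higher. Of the 85 interferon-stimulated genes 5 passed there, all higher: Epsti1 (0.47 ± 0.11, adjusted p = 0.0352), Slfn2 (0.63 ± 0.16, adjusted p = 0.0424), Isg15 (0.91 ± 0.24, adjusted p = 0.0456), Ifi209 (0.63 ± 0.17, adjusted p = 0.0468) and Ifi211 (0.55 ± 0.15, adjusted p = 0.0487). With WT library 3 left out as well, 2 of the 85 passed, Epsti1 and Slfn2, where 486 of all genes did, 289 of them higher.

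PARPs with PKR, and the TRIM and nuclear body genes, held no called gene. Of the 8 genes in the first of these 4 were above 0 (median 0.030), and of the 15 in the second 12 were (median 0.15). Without double knockout library 1 these medians were -0.055 and 0.051, and without WT library 3 they were 0.080 and 0.18. Parp14, an ADP-ribosyltransferase, read 3205, 3989.8, 3739.9 and 2793 in the double knockout, 5183, 4125, 5469, 3286 and 4539 in WT and 5732, 6180.0, 6867 and 4257 in SAMHD1 KO. It overlapped WT at a lower mean (-0.39 ± 0.15, adjusted p = 0.167), and every double knockout library was below every SAMHD1 KO library (-0.74 ± 0.16, adjusted p = 0.0664). Zbp1, a sensor of left-handed nucleic acid that triggers cell death, differed from WT by 0.46 ± 0.24. Sp100, a nuclear body scaffold, differed by 0.070 ± 0.10 from WT and by -0.46 ± 0.11 from SAMHD1 KO (adjusted p = 0.0697), and Phf11d by 0.22 ± 0.16 and -0.50 ± 0.17. Beside these lists, Sorl1 and Pde7b differed from WT by 0.0059 ± 0.19 and 0.13 ± 0.20.

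**Figure D3:**
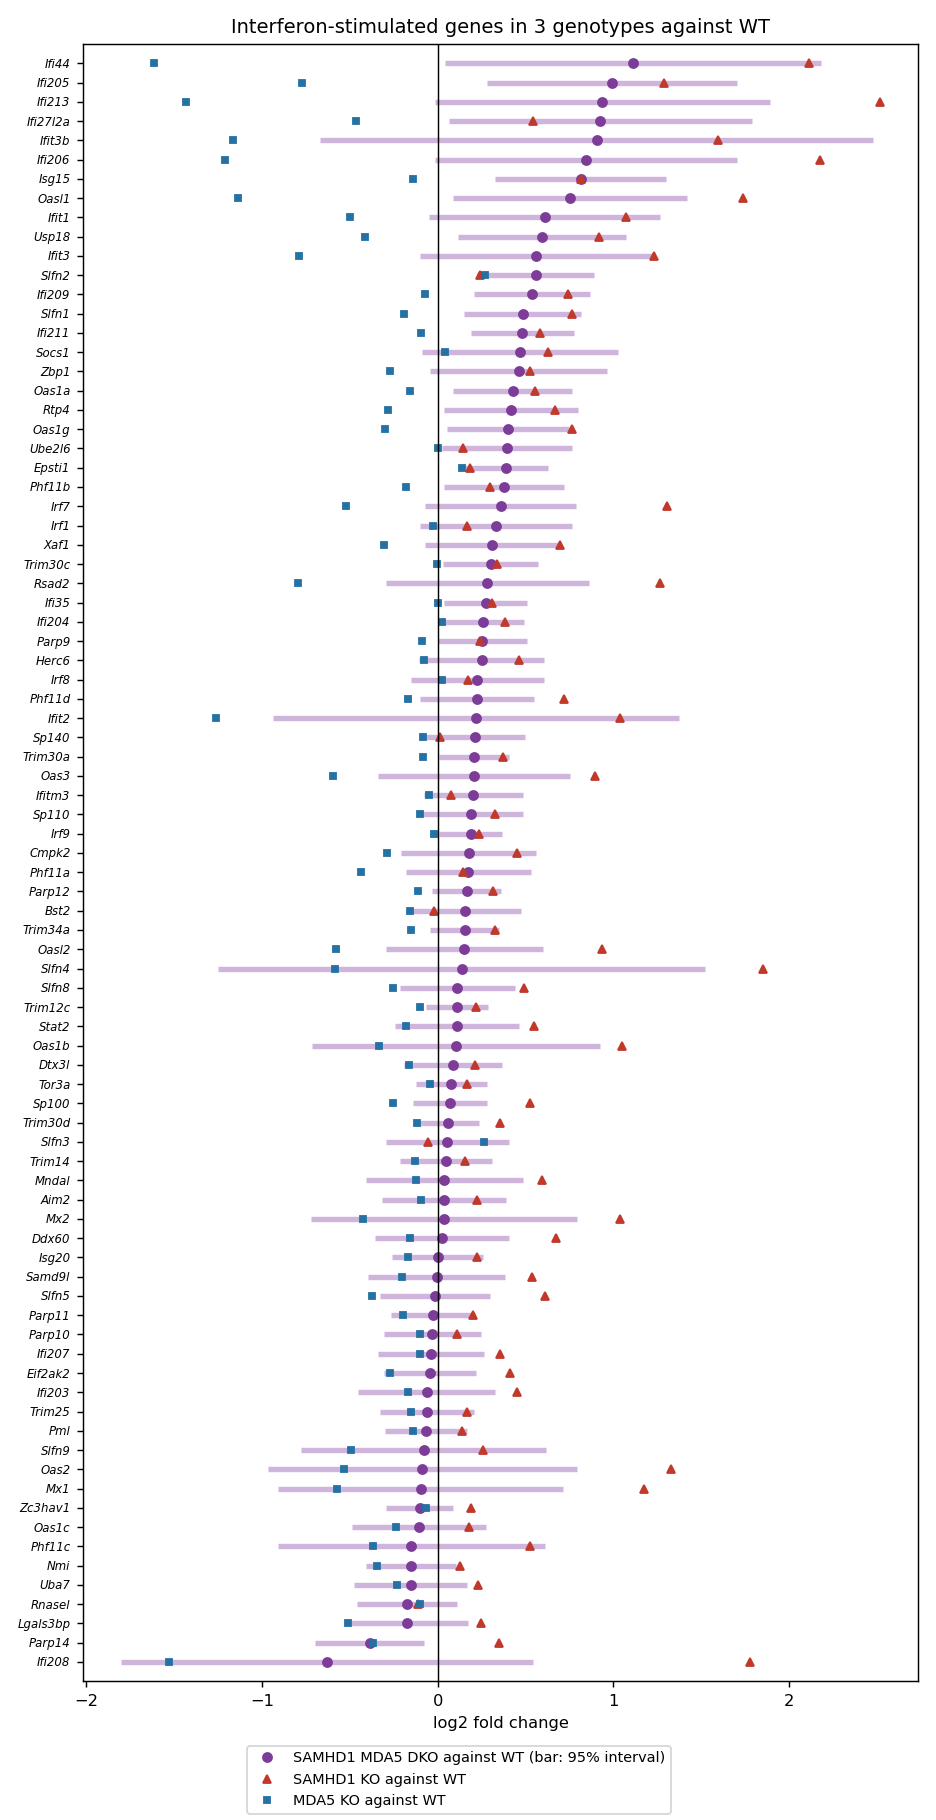
Each row is 1 interferon-stimulated gene, 84 of the 85 tested, sorted by the log2 fold change of the SAMHD1 MDA5 DKO against WT (circle, with its 95% interval as a bar), with SAMHD1 KO (triangle) and MDA5 KO (square) against the same WT libraries. Medians over all 85 are 0.18 for circles, 0.45 for triangles and -0.18 for squares.

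Genes that respond foremost to interferon gamma showed 1 double knockout library apart from the others. Of 18 interferon-inducible GTPases 17 were above 0, with a median of 0.35, and none was called. Igtp, an immunity-related GTPase of the vacuole defence, read 2769.5, 1019, 983 and 834 in the double knockout and 906, 794, 750.3, 752 and 940.0 in WT. Tgtp2 of the same family read 5186, 989, 856 and 956 against 876, 605, 799.8, 616 and 1126. In both, library 1 was at least 2-fold above every other library and the other 3 were at or near the WT range. Without library 1 the median of the 18 was 0.050, with 12 above 0. Ifi47 read 3506, 1289, 1149.6 and 1397 against 1072, 811, 581, 1014 and 1144, at 0.87 ± 0.27 (adjusted p = 0.124). Its groups nearly touched without overlap, with double knockout library 3 at 1149.6 and the highest WT library at 1144.

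The same library was highest for antigen presentation. MHC class I genes with their peptide loading and proteasome partners had 14 of 19 members above 0 and a median of 0.21, which was -0.029 without library 1. MHC class II genes had 8 of 10 above 0 and a median of 0.37, which was -0.11 without it and 0.19 without WT library 3. H2-Ab1, a class II beta chain, read 33647, 4125, 7726 and 4631 in the double knockout and 6143, 4017, 1749, 3535 and 16496 in WT. Library 1 and WT library 5 were the 2 highest. Psme2, a subunit of the proteasome activator that interferon gamma induces, read 4947, 3375, 2955 and 3578 against 2724, 2275, 1519, 2825 and 2870.1 in WT, and its groups did not overlap (0.61 ± 0.17, adjusted p = 0.114). Plac8, a gene of monocytes, was also high in library 1, with 1533, 128, 84.7 and 92.2 in the double knockout and 90.7, 46.1, 9.71, 52.7 and 203 in WT. The mean log2 level of the 12 tested markers of small macrophages and monocytes, Plac8 among them, did not set library 1 apart. It was 8.70, 8.70, 9.01 and 8.58 in the double knockout and 9.17, 8.78, 7.98, 8.68 and 9.24 in WT. The part of such cells in the values of library 1 was not tested, and in bulk RNA more cells of a type and more RNA per cell cannot be told apart.

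With all libraries, the called genes clustered on chromosome 2, which carries both targeted genes. Of the 44 called genes 13 lay there (29.5%), both targeted genes among them, where 7.89% of tested genes lie. In the fits without the libraries that kept Samhd1 this share was lower, and the counts are given with the other settings. Within 10 Mb of Ifih1, 5 of 58 tested genes were called (8.62%), all lower: Ifih1, Gca, Fap, Cytip and Rprm. From 10 to 20 Mb, 3 of 56 were called, namely Rnd3, Kif5c and Vis1. Within 10 Mb of Samhd1 it was 3 of 188 (1.60%), Samhd1, Pofut1 and 5031425F14Rik, and on all other chromosomes 31 of 12189 (0.254%). The strain in which each locus was targeted is not stated.

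Rnd3 (chr2:51130438-51149111, minus strand), an atypical small GTPase that loosens actin stress fibres, was the called gene with the smallest p after Ifih1. It read 2895, 2946, 3835 and 4099 in the double knockout and 876, 979, 959, 798 and 814 in WT. All double knockout libraries were above all WT libraries, at 1.95 ± 0.19 (adjusted p = 4.65e-06). In SAMHD1 KO it read 884, 942, 683 and 772 and in MDA5 KO 7147, 4408, 3329 and 3826, so that the genotypes without Ifih1 were high and those with it were low. Kif5c (chr2:49619298-49774778, plus strand), a kinesin heavy chain known from neurons, read 0, 1.15, 0.921 and 3.92 in the double knockout and 33.2, 21.03, 39.8, 28.9 and 37.7 in WT, a log2 fold change of -3.93 ± 0.42 (adjusted p = 1.23e-05). Vis1 (chr2:45280724-45280924, plus strand) read 27.03, 24.2, 30.4 and 32.4 and in WT 2.93, 5.01, 1.94, 9.35 and 3.06 (2.57 ± 0.32, adjusted p = 1.49e-04). In MDA5 KO against WT, which shares the WT libraries, Rnd3, Kif5c and Vis1 had log2 fold changes of 2.34, -3.39 and 2.64 (adjusted p = 1.32e-07, 1.29e-04 and 1.28e-04).

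Gca (chr2:62664285-62694109, plus strand), which starts beside Ifih1 and encodes grancalcin, a calcium-binding protein of phagocytes, fell in the double knockout. Its level was 339.9, 179, 224 and 255, against 506, 515, 739, 524 and 542 in WT, without overlap (-1.20 ± 0.18, adjusted p = 9.34e-04). Cytip (chr2:58129137-58195532, minus strand), which regulates integrin adhesion through cytohesins, fell by a smaller amount with little spread: it read 1601, 1566, 1622 and 1373 against 2170.4, 2164, 1866, 1955 and 2129.9 (-0.42 ± 0.073, adjusted p = 0.00767), a call that was lost when adjusted for transcript length (-0.30, adjusted p = 0.139) and with the compared genotypes alone (adjusted p = 0.198). Rprm (chr2:54084093-54085552, minus strand), a p53 target that arrests the cell cycle, read 2.08, 4.61, 8.29 and 13.7 against 31.2, 53.1, 67.9, 163 and 29.6 (-3.03 ± 0.55, adjusted p = 0.0124). Its call was lost without double knockout library 1 or 2. Fap (chr2:62500943-62574075, minus strand), a serine protease of activated fibroblasts, was at 0 in all 4 double knockout libraries and at 3.90, 5.01, 23.3, 4.25 and 4.08 in WT. The WT values are themselves low apart from library 3, and the call (adjusted p = 0.0392) was lost without any of 6 libraries, WT library 3 among them. In MDA5 KO against WT, Gca, Cytip and Rprm had log2 fold changes of -1.07, -0.42 and -3.17 (adjusted p = 0.00744, 0.0120 and 0.0120). In SAMHD1 KO they were at -0.063, 0.047 and -0.69.

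**Figure D4:**
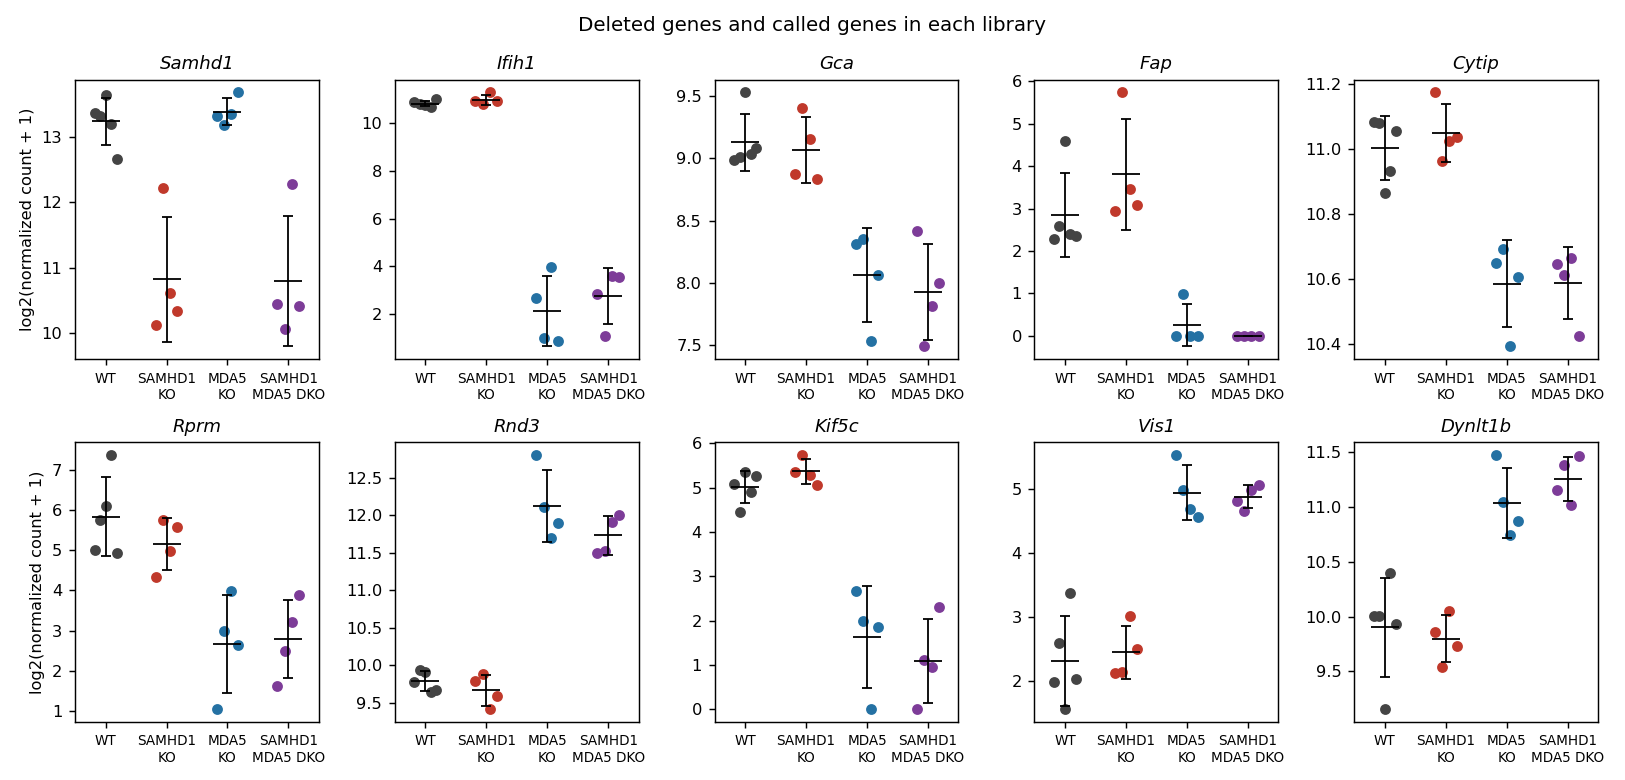
Points are libraries on a scale of log2(normalized count + 1), and black lines give the mean and SD of each genotype, for both targeted genes and 8 called genes. In Gca, Fap, Cytip, Rprm, Rnd3, Kif5c, Vis1 and Dynlt1b the double knockout lies with MDA5 KO, and in Samhd1 it lies with SAMHD1 KO, with 1 library of each between the knockout and WT levels.

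Near Samhd1 and elsewhere on chromosome 2 the called differences were smaller or in low genes. The RNA 5031425F14Rik (chr2:166447451-166459232, plus strand) read 173, 147, 187 and 184 in the double knockout and 333, 296, 337, 338 and 352 in WT (-0.94 ± 0.13, adjusted p = 5.26e-04). Its groups did not overlap. In SAMHD1 KO it read 274, 256, 356 and 248, a log2 difference from WT of -0.24. In MDA5 KO it read 197, 175, 274 and 259, a difference of -0.57, and neither was called. Its mean was 314 in SAMHD1 RIG-I DKO and 331 in WT. Pofut1, which adds fucose to Notch receptors, differed by -0.44 ± 0.094, Olfml2a by -2.75 ± 0.60 and Sardh, a mitochondrial sarcosine dehydrogenase, by -0.45 ± 0.10; the call of each of these 3 was lost without most single libraries.

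Outside chromosome 2, 3 genes were called in every fit with 1 library left out. Dynlt1b (chr17:6430112-6436296, plus strand), a dynein light chain, read 2276, 2665, 2080.0 and 2828 in the double knockout and 1029.6, 1029.7, 569.8, 1346 and 977 in WT. The groups were apart (1.35 ± 0.17, adjusted p = 1.94e-04), and MDA5 KO differed from WT by 1.13. Near-identical copies of Dynlt1 exist, so which copy carried these reads is uncertain. Irag1 (chr7:110868266-110982461, minus strand, named Mrvi1 in GENCODE), a substrate of cGMP-dependent kinase at the calcium store, read 791, 1383, 1202 and 1926 against 5519.7, 4036, 4969, 3534 and 3512 in WT and fell by 1.75 on the log2 scale (SE 0.28, adjusted p = 0.00364). Fxyd6 (chr9:45370185-45396159, plus strand), a regulator of the sodium pump, read 0, 0, 0 and 1.96 against 23.4, 31.1, 34.9, 13.6 and 7.14 (-3.94 ± 0.56, adjusted p = 6.28e-04). In SAMHD1 KO and MDA5 KO against WT, Irag1 was at -0.62 and -0.68 and Fxyd6 at -0.95 and -2.82, none of them called. Directly against SAMHD1 RIG-I DKO, Dynlt1b differed by 0.76 ± 0.18, Irag1 by 0.051 ± 0.30 and Fxyd6 by -1.29 ± 0.59. None of them was called there (limma, adjusted p = 0.142, 0.973 and 0.540).

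Of the other called genes that were higher than WT, Rhoh, an atypical small GTPase of blood cells, read 295, 379, 297 and 355 against 224, 213, 141, 238 and 210.0 (0.70 ± 0.13, adjusted p = 0.0141). The groups were apart. The call of Rhoh was lost without double knockout library 2 or 4. Bcl2a1d, of a family of near-identical survival genes whose copies may share reads, differed by 1.18 ± 0.26, and Chchd7, a mitochondrial protein, by 0.48 ± 0.097. Both lost the call without most single libraries. Directly against SAMHD1 RIG-I DKO, Rhoh differed by 0.28 and Chchd7 by -0.12, neither of them called.

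The called genes that were lower included adhesion, signalling and lysosomal genes. Amotl1, a junction protein, differed by -1.48 ± 0.26 (adjusted p = 0.00767), Pitpnm2, a lipid transfer protein, by -0.93 ± 0.16 (adjusted p = 0.00767), and Itgb4, the integrin beta chain that binds laminin, by -2.05 ± 0.37 (adjusted p = 0.0132). The calls of Amotl1 and Pitpnm2 were lost without double knockout library 2, and that of Itgb4 without library 1 or 2. Eef2k, the kinase that slows translation elongation, read 2748, 2484, 2819.7 and 2517 against 3465, 3637, 3549.8, 2991 and 3545, without overlap (-0.38 ± 0.070, adjusted p = 0.0140), and the lysosomal enzymes Gaa and Arsa differed by -0.45 ± 0.085 and -0.45 ± 0.090. Hdac7, a class IIa histone deacetylase, differed by -0.68 ± 0.13, Rxrg, a retinoid X receptor, by -1.15 ± 0.24, Fgd5, an activator of Cdc42, by -1.74 ± 0.34, Atp8b2, a phospholipid flippase, by -0.84 ± 0.16, and Sntb1, a syntrophin, by -1.29 ± 0.29. Igf2, the growth factor, differed by -1.07 ± 0.23 and Tmem98 by -1.49 ± 0.32. Each of these from Eef2k on lost its call without at least 2 single libraries. Directly against SAMHD1 RIG-I DKO, Amotl1, Pitpnm2, Itgb4, Eef2k, Gaa and Arsa differed by -0.31, -0.20, 0.46, 0.042, 0.16 and 0.094. Hdac7, Rxrg, Fgd5 and Atp8b2 differed from it by -0.22, -0.60, -0.78 and -0.38, and none of these genes was called there.

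The lists of sensing and of nucleic acid metabolism, which leave out Ifih1 and Samhd1, held no called gene. RNA sensing genes other than Ifih1 and Ddx58 had 7 of 18 members above 0 with a median of -0.053, and the double-stranded RNA receptor Tlr3 differed by -0.29 ± 0.11 (adjusted p = 0.160). DNA sensing genes had 8 of 11 above 0 with a median of 0.11. Trex1, the exonuclease that clears cytosolic DNA, read 2509, 2446, 2017 and 1931 in the double knockout and 1846, 1765, 1699, 1927 and 1849.5 in WT (0.28 ± 0.097, adjusted p = 0.140). The groups did not overlap, though the nearest values, 1931 and 1927, nearly touched. Genes of dNTP metabolism, the pathway in which SAMHD1 acts, had 17 of 25 above 0 with a median of 0.16. Adjusted for transcript length they had 14 above 0 with a median of 0.115. Ada, adenosine deaminase, which also acts on deoxyadenosine, read 49.9, 55.3, 49.7 and 66.7 against 39.00, 32.1, 33.97, 30.6 and 27.5, without overlap (0.74 ± 0.19, adjusted p = 0.0811). Nt5c, a nucleotidase that acts on deoxynucleotides, read 929, 1025, 789 and 962 against 690.3, 746, 390.2, 878 and 603 (0.53 ± 0.16, adjusted p = 0.121). Nucleic acid clearance genes had 7 of 11 above 0 with a median of 0.17, and genes of interferon receptors and their kinases 3 of 8 with a median of -0.039. All 8 of the latter had an interval within a 1.5-fold difference. Without WT library 3 the median of RNA sensing genes was -0.0031 with 9 above 0, that of dNTP genes 0.11 and that of interferon receptor genes -0.067 with 1 above 0.

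The lists of proliferation genes and of p53 and damage genes held no called member either. Rprm, called above, was on neither list. Cdkn2a, which encodes the inhibitors INK4A and ARF, read 156, 124, 184 and 201 in the double knockout and 544, 620.0, 236, 654 and 231 in WT. The groups did not overlap, although WT libraries 3 and 5 came near the double knockout (-1.33 ± 0.30, adjusted p = 0.0514); it passed in the fits without double knockout library 3 (adjusted p = 0.0465), without WT library 3 (adjusted p = 0.0255) or adjusted for transcript length (adjusted p = 0.00694). In SAMHD1 KO it read 206, 156, 162 and 216, a log2 difference from WT of -1.17 ± 0.30. The p53 and damage list as a whole had 7 of 17 above 0 with a median of -0.031 (-0.018 without WT library 3). Proliferation genes had 7 of 24 above 0 with a median of -0.16, which was -0.072 with 10 above 0 without WT library 3, and WT libraries ranged from 5.96 to 9.52 in their mean log2 level, wider than the double knockout.

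Macrophage state genes showed scattered differences of which 1 was called. Mgl2, the galactose-type lectin CD301b of small macrophages and dendritic cells, read 125, 164, 276 and 153 in the double knockout and 661, 393, 313, 531 and 237 in WT. It fell, at -1.22 ± 0.27 (adjusted p = 0.0494), though double knockout library 3 overlapped WT, and the call was lost without most single libraries. Retnla, which interleukin-4 induces, read 7957, 19313, 14917 and 35379 against 9343, 11308, 2592, 5043 and 9529 (1.34 ± 0.43, adjusted p = 0.138). Of 12 markers of small macrophages and monocytes 5 were above 0, and their summed level ran from 23645 to 44590 normalized counts in the double knockout and from 9055 to 21340 in WT, with Retnla a large part of each sum. The median log2 fold change of these 12 was -0.16, and their mean log2 level was 8.75 ± 0.18 (SD, n = 4) against 8.77 ± 0.50 (SD, n = 5). Large macrophage markers had 5 of 17 above 0 with a median of -0.19 (-0.11 without WT library 3); Ltbp1, a binding protein of latent TGF-beta, read 47381, 42963, 52397 and 38053 against 59612, 57634, 71959, 59149 and 63432, without overlap (-0.47 ± 0.11, adjusted p = 0.0613). Scavenger receptor genes had 10 of 13 above 0 (median 0.069), complement genes 7 of 12 (0.088), chemokines 10 of 11 (0.33), inflammatory genes 7 of 17 (-0.038), early response genes of cell handling 10 of 20 (-0.017) and sterol genes 6 of 17 (-0.036). Without WT library 3 the median of the early response genes was 0.22 with 14 above 0, that of complement genes 0.0078, that of scavenger receptor genes 0.044 and that of inflammatory genes -0.025. Stab1, a scavenger receptor, differed by -0.79 ± 0.29, and Cd163, the haemoglobin receptor, by 0.91 ± 0.41; neither passed.

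Markers of other cells that a peritoneal lavage can hold were measured too. B cell markers had 1 of 12 above 0 with a median of -0.87 (-1.47 without WT library 3) and none called, with summed levels of 2192 to 2860 normalized counts in the double knockout and 1572 to 4386 in WT, WT library 3 being the lowest. Mast cell markers had 0 of 6 above 0, with a median of -0.49 that was -0.26 with 2 above 0 without WT library 3 (sums 712 to 2072 against 1473 to 2046), and of 14 T and NK cell markers 4 were measured, with sums of 35 to 97.9 against 26.4 to 115. Granulocyte markers had 2 of 5 measured members above 0, dendritic cell markers 2 of 6 and erythroid markers 2 of 3. None of the 10 mesothelial markers was among the listed genes. The part of these cells in the results above was not tested.

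Genes with short transcripts were higher and genes with long transcripts lower in the double knockout than in WT. In the shortest quartile of genes (longest transcript 109 to 1970 bases) the median log2 fold change was 0.21, and in the longest (4642 bases and above) it was -0.11, with 0.024 and -0.064 in between. At an unadjusted p under 0.05, 866 genes of the shortest quartile were higher and 46 lower, against 88 higher and 454 lower in the longest. WT library 3 stood at -0.32 from the WT mean in the shortest quartile, where the other WT libraries were at 0.053 to 0.19 and the double knockout libraries at 0.11 to 0.30. Without that library the medians were 0.14 and -0.077. With all libraries they were 0.12 and -0.028 in MDA5 KO against WT, and -0.033 and 0.024 in SAMHD1 KO against WT. The double knockout directly against SAMHD1 RIG-I DKO gave 0.0055 and -0.011. Adjusted for length, a setting chosen after the data were seen, 35 genes were called, 29 of them among the 44, and of the genes named above Cytip, Eef2k, Atp8b2, Igf2, Pofut1, Olfml2a, Sardh, Bcl2a1d and Sntb1 lost the call. The median of the interferon-stimulated genes was then 0.17 with 64 above 0. That of the interferon-inducible GTPases was 0.37 with 17 above 0, and that of chemokines 0.20 with 8 of 11 above 0.

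**Figure D5:**
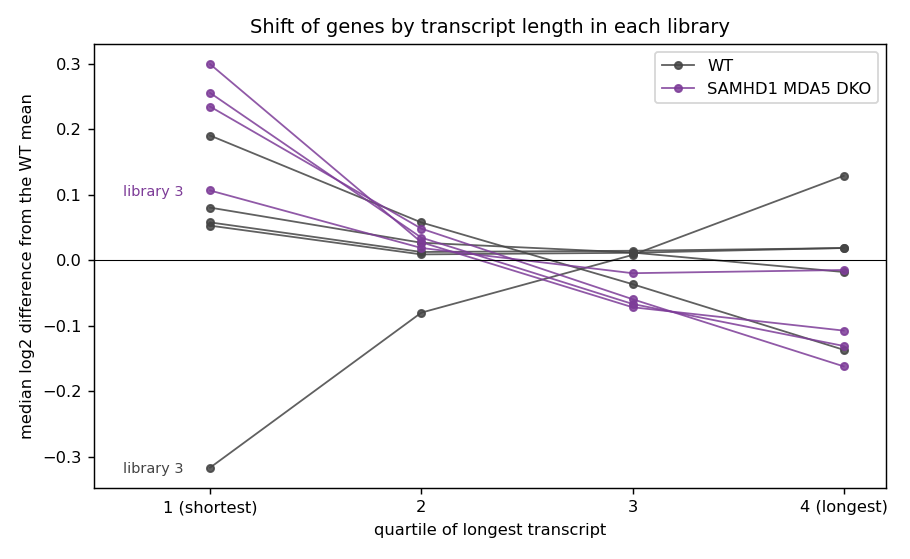
Each line is 1 library of WT (grey) or of the SAMHD1 MDA5 DKO (purple), and its height is the median log2 difference from the mean of the 5 WT libraries among genes of each quartile of transcript length. In the shortest quartile WT library 3 lies at -0.32 and the double knockout libraries at 0.11 to 0.30, and of the other WT libraries only library 4, at 0.19, reaches the double knockout range.

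Set directly against the single knockouts, the double knockout differed from SAMHD1 KO in 16 genes (7 higher and 9 lower) and from MDA5 KO in 1. Beside Ifih1, the 16 held Rnd3, Kif5c, Vis1, Gca, Cytip, Fap, Dynlt1b, Fxyd6, Atp8b2 and 5031425F14Rik. Rnd3 differed from SAMHD1 KO by 2.06 ± 0.20 (adjusted p = 4.24e-06) and Kif5c by -4.28 ± 0.44 (adjusted p = 6.76e-06). Glmn, which inhibits cullin ubiquitin ligases, differed by 0.62 ± 0.12 and the mitochondrial ribosome genes Mrpl21 and Mrps14 by 0.61 ± 0.12 and 0.60 ± 0.12; the others were Gm29170 and Dynlt1-ps1. An unadjusted p under 0.05 was reached by 3156 genes against SAMHD1 KO and by 525 against MDA5 KO. The count of 16 rested on libraries that stood apart: it was 534 without WT library 3 and SAMHD1 KO library 2 and 1465 without WT library 3 alone, which enters this comparison only through the shared spread. Samhd1 was the gene called against MDA5 KO, at -2.59 ± 0.38 (adjusted p = 0.0113), and 8 genes were called there without double knockout library 3.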

How the data were processed

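Total RNA of peritoneal macrophages was sequenced; RNA was purified with an RNeasy kit, per the labels' protocols. The sources disagree on the pipeline. The labels' protocol has pBWA (0.5.9-r32-MPI-patch2) with bedtools (2.16.2) and Ensembl Gene 61, while DESeq2, Salmon, STAR, R 4.1.2 and GRCm38/mm10 stand, without roles, among the authors' tools per the submitters' processing notes. Which of these made the values is not stated, nor is the use of strand. The values deposited by the authors per library are log2 values on the scale of a variance-stabilizing transformation, judged from the values, with a floor of 5.81 at a count of 0. The deposited group means, a signal in normalized counts, matched the means of counts recovered by inverting that transformation (largest relative difference 4.62e-14), and 100% of recovered values were whole reads within 0.01. The authors' deposited log2 fold changes and p-values were not used.

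Tests were made with limma 3.58.1 (trend and robust, statmod 1.5.0, R 4.3.3) on log2(normalized count + 1) of all 25 libraries in 1 fit with 19 residual degrees of freedom, two-sided, Benjamini-Hochberg adjusted p under 0.05. The added 1 makes fold changes of low genes smaller. Genes needed a normalized count of 10 in 4 libraries, which left out 14 of 13266; 1007 had no symbol. Positions and transcript lengths are from GENCODE M21 on GRCm38, which matched 13249 genes. Replicates were not duplicates (chi-square per degree of freedom 29.6 to 217 between pairs of the double knockout or WT). The fit was tested on simulated data. Other settings tried were the pseudocount, the filter, the scaling, voom, the libraries left out and a length adjustment.

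The members and gene lists were chosen with earlier results of these data known. The text names Samhd1, Ifih1 and Ddx58, up to 15 called genes in each direction with the smallest p (those of at least 2-fold first), called genes within 10 Mb of Ifih1 or Samhd1, preset interferon-stimulated genes with Sorl1 and Pde7b, the 4 members with the smallest p of each list or role, and up to 5 called genes in each direction of both direct comparisons. Outside this rule, Arsa, Atp8b2, Eef2k, Gaa, Gata6, Hdac7, Mrpl21, Mrps14, Oas2, Pitpnm2, Sardh and Sntb1 were chosen after their values were seen; Cxcl10 was not analysed here. Some genes that the rule names are not reported here.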

Additional observations from a re-analysis of the deposited data

Results flagged for a closer look

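Values in which 1 library of a group stood far from the rest are given with the gap to the nearest library as a share of the group's range; by chance about 1 group in 20 shows such a gap. In the double knockout, library 1 was the highest for the mean level of interferon-stimulated genes (gap 0.889), of MHC class I genes (0.944), of interferon-inducible GTPases (0.931) and of large macrophage markers (0.839). Among single genes, library 1 was likewise the highest for Irf7 (0.832), Zbp1 (0.858), Igtp (0.833), Tgtp2 (0.920) and Plac8 (0.859). Fxyd6 was detected in library 4 alone of the double knockout (gap 1).

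In WT, library 3 was the lowest for B cell markers (gap 0.778), Rhoh (0.761) and Slfn2 (0.753), and the highest for Gca (0.817) and Fap (0.873). This is the WT library apart on the first component.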

How the results depend on the processing

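No paired analysis was possible because the column names carry no replicate number of the titles. With 1 library of the compared genotypes left out in turn, the called genes against WT numbered 13 to 136, those on chromosome 2 8 to 21, those against SAMHD1 KO 8 to 43 (1465 without WT library 3, which enters through the shared spread) and those against MDA5 KO 0 to 8. Genes with an interval within 2-fold numbered 10497 to 11109 and within 1.5-fold 7235 to 8720, and interferon-stimulated genes called 0 to 0, above 0 53 to 73, at a median of 0.062 to 0.24. Against WT 87 genes were called when libraries were scaled to listed reads (28 higher, 59 lower, a higher share than the 9 of 44), 25 with voom and 12 with the compared genotypes alone; on chromosome 2 voom called 8 and the compared genotypes alone 6. Without the libraries of intermediate Samhd1, 454 genes were called, 226 of them higher, with 45 on chromosome 2 and 5 interferon-stimulated. Without those and the libraries apart, chosen after seeing the data, it was 486, 289 of them higher, with 45 on chromosome 2 and 2 interferon-stimulated. In both fits the share on chromosome 2 was nearer to the 7.89% of tested genes there than to the 29.5% of called genes with all libraries. Against SAMHD1 KO the count was 8 with a filter of 50, 48 scaled to listed reads, 8 with voom, 4 with the compared genotypes alone, 534 without the libraries apart, 6 without those of intermediate Samhd1 and 1152 without both. Against MDA5 KO it was 3 with a filter of 50, 4 scaled to listed reads, 0 with the compared genotypes alone (600 at an unadjusted p under 0.05, and 1 called by voom with all libraries), 6 without the libraries apart, 9 without those of intermediate Samhd1 and 14 without both. With the compared genotypes alone fewer samples estimate the spread; for the other settings the cause was not tested. Of the 26 called genes named by rule, none changed sign in 567 values, and of the 141 uncalled ones 13 did, in 46 of 3086 values. Scaling to listed reads moved the median of all genes to -0.045. Of the 13252 genes, 2328 had intervals reaching past a 2-fold difference, so for them these libraries do not exclude a difference of that size. For the others an interval within 2-fold does not show that the double knockout equals WT. Eef2k, Gaa and Cytip had such intervals and were called different from WT.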

Other observations

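Without double knockout library 3, 8 genes were called against MDA5 KO, where 1 was called with all libraries; these genes were chosen after their values were seen. Beside Samhd1 they were Csprs, LOC102638047, LOC100041057, C130026I21Rik, Gm7609, Gm15433 and Gask1b, and C130026I21Rik, Gm7609 and Gm15433 lie within chr1:84963669-85270566. Csprs read 185, 205, 85.7 and 269 in the double knockout and 51.5, 39.5, 42.7 and 67.1 in MDA5 KO, so that library 3 was the lowest of its group and still above MDA5 KO. Without that library its log2 difference from MDA5 KO was 2.12 ± 0.29 (limma, adjusted p = 0.00197). Csprs read 194, 283, 323 and 226 in SAMHD1 KO and 71.2, 90.1, 99.01, 81.6 and 186 in WT. C130026I21Rik read 1859, 1267, 445 and 1711 in the double knockout, 560.0, 564, 419.9 and 502 in MDA5 KO, 956, 1243, 1045 and 1071 in SAMHD1 KO and 563, 740.2, 655, 756 and 1368 in WT. There library 3 was the lowest of the double knockout and lay inside the MDA5 KO range. Apart from Samhd1 these genes were called only without library 3, so its place nearer to MDA5 KO follows from how they were chosen. These genes include pseudogenes and related copies, so the share of reads that belongs to each is uncertain. Gask1b, a kinase-like protein of the Golgi, read 282, 245, 604 and 325 in the double knockout and 559, 673, 511 and 903 in MDA5 KO.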
